A study of Mus musculus with 6 samples.

Results

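The genes described here are 8 genes that mark gamma-delta and other innate-like T cells: the surface receptors Gpr83 and Cd163l1, the transcription factors Sox13, Sox4, Maf and Zbtb16, and the cytokine receptors Il23r and Il1r1. They were found by gene symbol in the array's platform annotation, and the genes themselves were chosen with earlier results of these data known. Of the 8 genes, 7 have at least 1 probe set there and together have 24, while Il23r is not analysed here because the annotation used names no probe set for it. The 7 genes stand among 18193 genes with a symbol of their own on the array. Of the 24 probe sets, 17 passed a filter on dim values, and these 17 cover all 7 genes. They were tested among 27022 probe sets in all.

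The samples are mouse thymocytes, per the sample descriptions double negative cells obtained by flow cytometric sorting, from 3 wild type animals and from 3 animals labelled as double knockouts of Egr1 and Egr3. Double negative thymocytes are the early T cell precursors that carry neither CD4 nor CD8, and Egr1 and Egr3 encode zinc finger transcription factors induced by antigen receptor signals. Titles and source names speak instead of whole thymus and of amplified RNA. The descriptions give 1 animal for each single-colour array, and no treatment other than the sort is named for either group. The sources used here do not give strain, age, sex, the kind of knockout allele or the gates of the sort. P-values measure the spread between these few arrays, and the number of arrays limits the precision of every value.

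Gamma-delta T cells leave the main thymic path at the double negative stage, when a gamma-delta receptor rather than the pre-T cell receptor gives the signal. Those that make interleukin 17 depend on a set of transcription factors that includes Sox13, Sox4 and Maf, and answer to interleukin 23 and interleukin 1 through Il23r and Il1r1. Zbtb16, which encodes PLZF, gives invariant natural killer T (NKT) cells and some gamma-delta T cells their innate-like effector state. Early growth response factors act downstream of receptor signals in both lineages.

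The targeted gene went against the labels. Egr1 had intensities of 508, 509 and 455 in wild type and of 1757, 1696 and 1221 under the double knockout label. The log2 change was 1.60, with an adjusted p of 0.00312 in limma. Every Egr1 value was thus higher on the arrays labelled double knockout. The probe set read here for Egr3 had 92.2, 83.1 and 30.8 against 34.4, 45.8 and 32.9, and the groups overlapped. The sources used here do not say whether these probe sets lie inside the deleted parts, so all directions below rest on the labels alone, and the groups are called the wild type arrays and the arrays labelled double knockout.

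Array medians lay between 19.9 and 23.1, and the brightest of 27 bacterial control probe sets, a guide to background, between 19.0 and 29.9. Of all tested probe sets, 1358 changed at an adjusted p under 0.05, 787 higher and 571 lower on the arrays labelled double knockout. Summed double negative thymocyte markers (12 genes) were at 27892 to 33741 in wild type against 16042 to 18124 in the arrays labelled double knockout. Of the 12 genes, 0 were higher and 2 lower, beside 4.14% and 2.84% of all genes tested. These 2 were Ptcra, the pre-T cell receptor chain, at -1.89 and Il2ra at -1.20 (adjusted p = 0.000602 and 0.00937 in limma over genes). At an unadjusted p under 0.05 the count was 0 higher and 7 lower, beside 11.1% and 9.79%. Double positive markers (4 genes) were at 173 to 304 and at 153 to 223, with Cd4 and Tcra never above the brightest control. Granulocyte markers (11 genes) were at 339 on wild type replicate 3 and at 11576 to 27884 on the other 5 arrays, so that this array stood apart. It also had the highest erythroid sum (4 genes), at 3278 against 60.7 to 399 on the others, and Alas2 made up 95.9% of the sum on this array. The Y-linked Eif2s3y had 476, 13.2 and 0.625 in wild type against 199, 265 and 186 under the double knockout label, while the brightest Xist probe set had 1439, 3977 and 5311 against 4799, 6015 and 3910.4. Eif2s3y and Xist were thus high together on wild type replicate 1 and on every array labelled double knockout. The brightest probe set of the Y-linked Kdm5d had 144, 8.81 and 2.52 against 17.5, 29.5 and 10.3. That of the Y-linked Uty had 63.7, 10.5 and 12.4 against 11.4, 11.6 and 23.4. Both were high on wild type replicate 1 and near or below the brightest control on the other 5 arrays. High Y-linked signal under the double knockout label thus rests on Eif2s3y alone. Whether an array holds RNA of several animals was not tested. The part of these differences in the results on single genes was not tested, and in such bulk samples fewer cells of a type and less RNA per cell cannot be told apart.

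Both surface receptor genes rose, and the transcription factor and cytokine receptor genes had no probe set past the threshold. Of the 17 tested probe sets, 4 were higher and 0 lower in limma at an adjusted p under 0.05, beside 2.91% of all tested probe sets called higher and 2.11% called lower. The 4 are the probe sets of Gpr83 and Cd163l1, so they come from 2 genes and are not 4 independent results. At an unadjusted p under 0.05 the count was 5 higher and 1 lower, beside 9.86% and 8.90% of all tested probe sets. The median change of the 17 was 0.19, beside 0.0025 for all tested probe sets. On 6 of the 17 the groups did not overlap, 5 with every array labelled double knockout above and 1 with every one below, beside 23.9% of all tested probe sets.

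**Figure D1:**
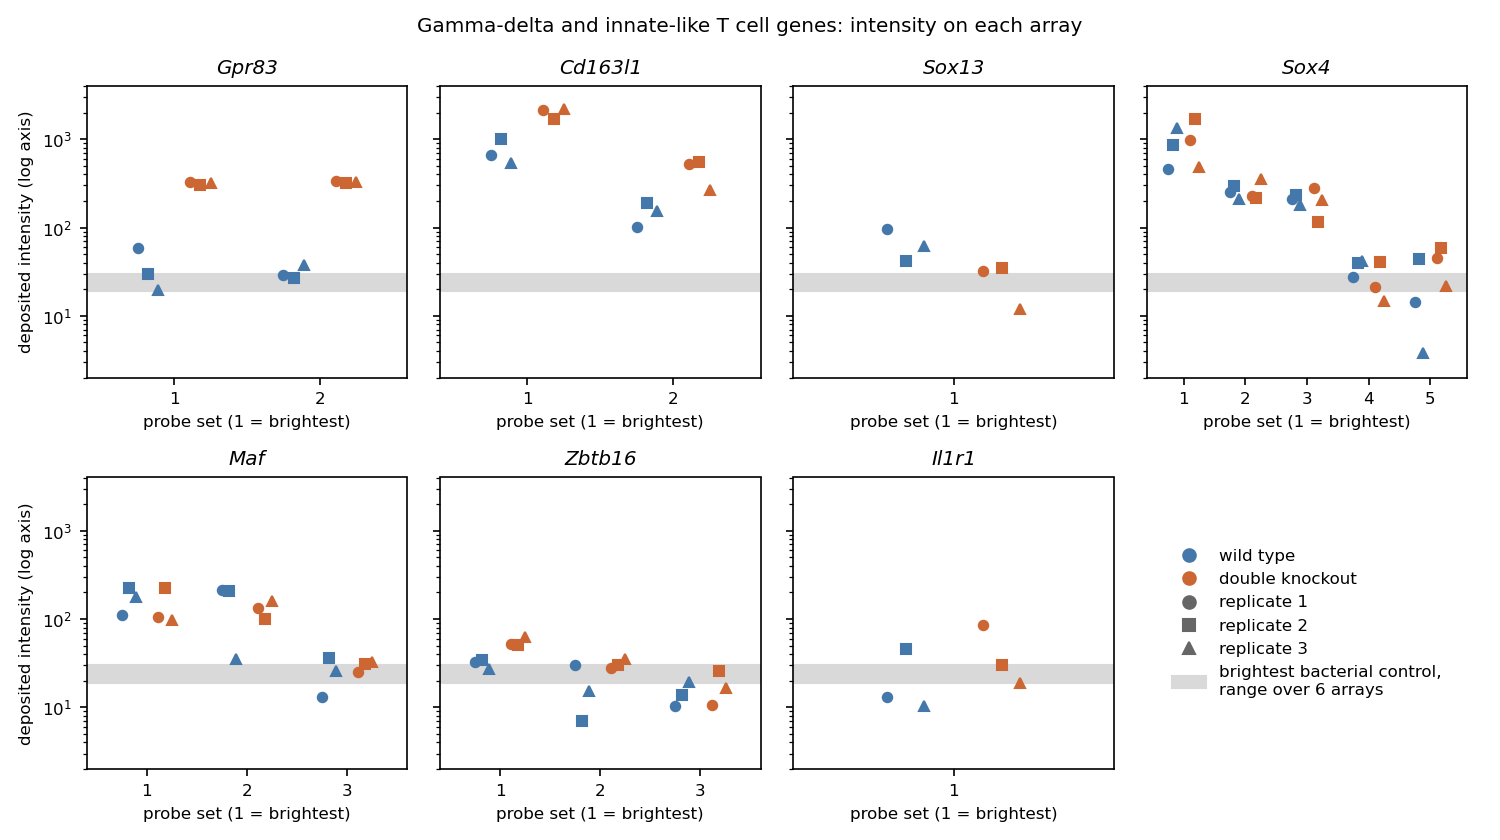
Deposited intensity on a log axis for each tested probe set of the 7 genes, numbered from the brightest, with blue points for wild type arrays, orange points for arrays labelled double knockout and a marker shape for each replicate number. The grey band is the range of the brightest bacterial control over the 6 arrays. The Gpr83 points separate widely, from 19.5 to 58.6 against 301 to 336, whereas most points of Sox4, Maf and Il1r1 intermix.

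The promoters of the 2 genes that rose are shown because the targeted factors are known to bind GC-rich DNA, and they are windows of 250 bases before to 50 after an annotated start site, from RefSeq on GRCm38.p6. The Gpr83 window lies on the plus strand at chr9:14859960-14860259 and the Cd163l1 window on the plus strand at chr7:140218017-140218316. Both lie inside the annotated spans of their genes, chr9:14859880-14870789 and chr7:140197218-140231145. The Cd163l1 window is far from the lower end of its span, so it shows an internal start site. Whether these start sites are used in the cells was not tested. Capitals mark every match to GNGNGGGNG, a loose form of the site of early growth response factors.
Gpr83: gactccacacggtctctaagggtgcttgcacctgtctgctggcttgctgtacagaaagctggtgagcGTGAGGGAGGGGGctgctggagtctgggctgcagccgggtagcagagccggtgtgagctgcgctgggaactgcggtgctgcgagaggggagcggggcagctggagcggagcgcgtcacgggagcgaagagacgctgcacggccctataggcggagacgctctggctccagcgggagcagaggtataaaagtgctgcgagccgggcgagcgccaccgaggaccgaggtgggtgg
Cd163l1: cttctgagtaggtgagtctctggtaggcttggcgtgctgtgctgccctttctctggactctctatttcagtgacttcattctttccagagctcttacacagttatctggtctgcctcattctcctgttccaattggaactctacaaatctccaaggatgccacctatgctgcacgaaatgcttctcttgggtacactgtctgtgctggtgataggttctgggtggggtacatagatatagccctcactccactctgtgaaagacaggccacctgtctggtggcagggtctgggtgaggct
Both strands were searched for the classical site GCGTGGGCG, which 0.612% of 32851 promoters of this length hold, for GCGGGGGCG, which 2.91% hold, and for GNGNGGGNG, which 39.6% hold and which also takes in both others. The Gpr83 window holds 2 overlapping matches to the loose form, which begin at positions -183 and -179 from the start site, and no match to the stricter forms. The Cd163l1 window holds no match to any of these motifs. Of the other members, which had no call, the Sox4 window holds 1 match to the loose form. For Il1r1, 1 of 2 windows holds 1 match to GCGGGGGCG and 2 to the loose form. The other Il1r1 window and those of Sox13 and Il23r hold none, and Maf and Zbtb16 had no window. The GC content is 67% for Gpr83 and 50.7% for Cd163l1. These matches are a description of the letters in the windows, and no binding was measured.

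Gpr83 encodes an orphan G protein-coupled receptor known from regulatory T cells and from gamma-delta T cells. Its brightest probe set had intensities of 58.6, 29.6 and 19.5 in wild type and of 327, 301 and 319 in the arrays labelled double knockout. The groups lay far apart. Wild type replicate 1 lay clearly above the brightest control of its array (25.7), replicate 2 somewhat above its own (20.1) and replicate 3 below its own (29.9). The means were 35.9 ± 20.3 and 316 ± 13.7 (SD, n = 3 each), a ratio of 8.80. On the scale of log2(intensity + 16), which understates changes of dim genes, the change was 2.73 (SE 0.29, 95% interval 2.10 to 3.35, adjusted p = 0.000351 in limma).

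The other Gpr83 probe set gave 28.7, 26.7 and 37.9 against 336, 316 and 323. Each array labelled double knockout was again above every wild type array. The means were 31.1 ± 5.97 and 325 ± 9.96 (SD, n = 3 each), a ratio of 10.4, and the log2 change was 2.84 (SE 0.23, 95% interval 2.34 to 3.35, adjusted p = 6.99e-05 in limma). Both probe sets kept their call when any 1 array was left out, with changes of 2.48 to 3.00 and of 2.79 to 2.94. Without wild type replicate 3, the array low in granulocyte markers, the changes were 2.48 and 2.94.

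Markers of regulatory T cells moved with Gpr83 in part. Their summed intensity (9 genes) was 3203 to 4151 in wild type against 6017 to 8448 under the double knockout label. Of the 9 genes, 2 were higher and 1 lower, beside 4.14% and 2.84% of all genes tested. At an unadjusted p under 0.05 the count was 4 higher and 2 lower, beside 11.1% and 9.79%. Ctla4, an inhibitory receptor of T cells, rose by 1.89 (SE 0.30, adjusted p = 0.00424 in limma over genes), from 491, 794 and 1089 to 2825, 3599 and 2334. Tnfrsf18, which encodes GITR, rose by 2.01 (SE 0.36). Il2ra, the high-affinity interleukin 2 receptor chain that double negative thymocytes carry too, fell by 1.20. Foxp3, the factor that defines regulatory T cells, had 21.8, 20.7 and 16.7 against 12.4, 19.6 and 23.6, and lay above the brightest control on 1 of the 6 arrays. Its change was -0.079 (SE 0.27), so the defining marker lay near background in both groups. Of the other markers, Ikzf2 changed by 0.77, Tnfrsf4 by 0.83 and Izumo1r by 0.35, whereas Nrp1 changed by -1.05 and Ikzf4 by -0.52. None of these passed. Ctla4, Tnfrsf18, Il2ra and Foxp3 were picked for fuller description after their values were seen.

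Cd163l1 encodes the scavenger receptor SCART1 of gamma-delta T cells. Its brightest probe set had intensities of 658, 999.9 and 531 in wild type and of 2139.6, 1704 and 2203 in the arrays labelled double knockout. All 6 values were far above the controls and the groups did not overlap. The means were 729.9 ± 242 and 2016 ± 272 (SD, n = 3 each), a ratio of 2.76, with a log2 change of 1.47 (SE 0.28, 95% interval 0.86 to 2.08, adjusted p = 0.012 in limma). By its suffix this probe set is of the kind whose probes can match related transcripts, which limits how surely its signal belongs to Cd163l1 alone.

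The other Cd163l1 probe set, without that suffix, gave 101, 189.7 and 152 against 525, 551 and 265. Replicate 3 of the arrays labelled double knockout was the lowest of its group and still above every wild type value. The means were 148 ± 44.3 and 447 ± 158 (SD, n = 3 each), a ratio of 3.03, and the log2 change was 1.45 (SE 0.33, 95% interval 0.73 to 2.18, adjusted p = 0.0289 in limma).

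The Cd163l1 calls held less firmly than those of Gpr83. The brightest probe set lost its call without double knockout replicate 1 (adjusted p = 0.0917 in limma) and without double knockout replicate 3 (0.0563). The other lost it without wild type replicate 1 (adjusted p = 0.104 in limma) or 2 (0.0512), and without double knockout replicate 1 (0.159) or 2 (0.115). The change stayed positive in each of these fits, at 1.26 to 1.75 for the brightest and 1.21 to 1.78 for the other. Without wild type replicate 3 both calls were kept, at 1.26 and 1.48.

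**Figure D2:**
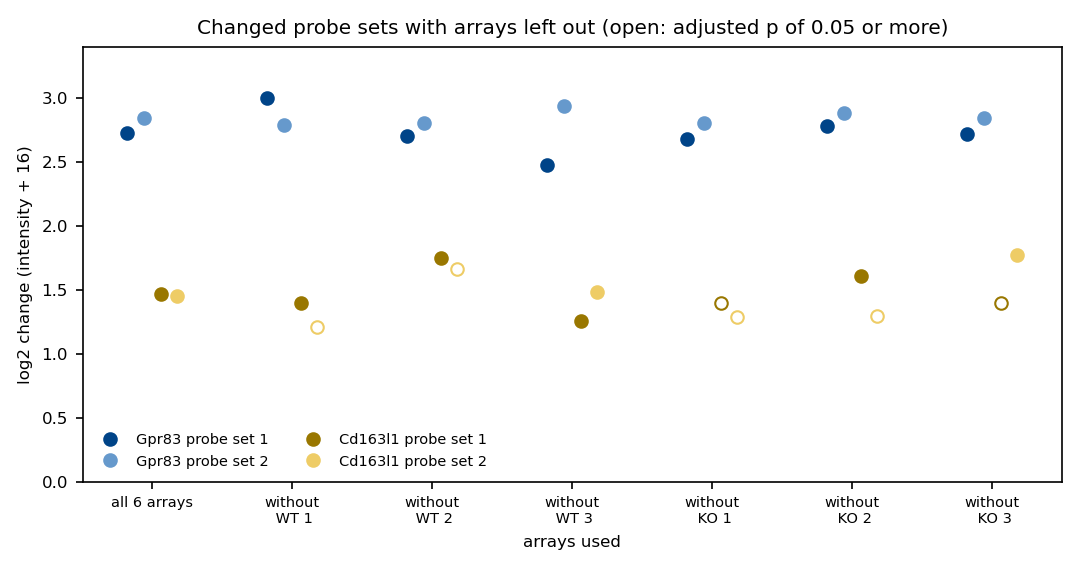
Log2 change (double knockout minus wild type, intensity + 16) of the 4 changed probe sets with all 6 arrays and with each array left out in turn (WT, wild type; KO, labelled double knockout). Filled points have an adjusted p under 0.05 and open points do not. Gpr83 is filled throughout, between 2.48 and 3.00, and Cd163l1 is open in several fits while its change stays between 1.21 and 1.78.

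The scavenger receptor gene 5830411N06Rik, the second SCART gene, lies near Cd163l1 on chromosome 7 with 1 protein-coding gene between them, and belongs to the list of gamma-delta lineage genes described further on. Its intensities were 489, 818 and 792 in wild type against 4027, 4697 and 2979 under the double knockout label. The groups were well apart, and the log2 change was 2.44 (SE 0.27, adjusted p = 0.000563 in limma over genes). The call was kept with any 1 array left out, at changes of 2.19 to 2.62. Whether the probes of either gene also read the other was not tested.

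None of the 4 transcription factor genes passed the threshold. Sox13 encodes an HMG-box factor of the gamma-delta lineage and was measured by 1 probe set, with 95.6, 41.3 and 62.1 in wild type against 32.2, 35.0 and 12.1 in the arrays labelled double knockout. Every array labelled double knockout was below every wild type array, though the highest of them lay close to wild type replicate 2. The means were 66.3 ± 27.4 and 26.4 ± 12.5 (SD, n = 3 each). The log2 change was -0.97 (SE 0.31, 95% interval -1.65 to -0.29, adjusted p = 0.106 in limma). It is the 1 probe set of the 17 with a negative change at an unadjusted p under 0.05.

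Sox4, another HMG-box factor and one of broad use in lymphocyte precursors, has 8 probe sets, of which 5 were tested. The brightest gave 457, 858 and 1354 against 989.6, 1708 and 488, so the spread within each group was larger than the difference between them. Its change was 0.19 (SE 0.45, 95% interval -0.79 to 1.17, adjusted p = 0.87 in limma). The next gave 251, 297 and 208 against 226, 216 and 358, with a change of 0.036 (SE 0.28). The third gave 212, 231 and 179 against 282, 114 and 205, with a change of -0.14 (SE 0.32). The groups overlapped on each of them, and wild type replicate 3 was the highest of its group on the brightest probe set and the lowest on the other 2. The 2 dimmer tested probe sets changed by -0.38 (SE 0.29) and 0.74 (SE 0.41), with intensities from 3.82 to 58.2. The 3 untested ones lay between 0.86 and 24.0.

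Maf encodes the basic leucine zipper factor c-Maf and has 6 probe sets, of which 3 were tested. The brightest gave 109.7, 223 and 179.6 against 105, 222 and 97.7, and replicate 2 was the highest array of both groups. Its change was -0.30 (SE 0.34, 95% interval -1.05 to 0.45, adjusted p = 0.707 in limma). The second gave 213, 206 and 35.3 against 133, 101 and 160.2, a change of 0.06 (SE 0.49, 95% interval -1.01 to 1.13), with wild type replicate 3 far below the other wild type arrays. Both intervals span 0 and are wide, so they do not show equal levels either. The third tested probe set changed by 0.17 (SE 0.29) at intensities of 13.1 to 36.4, and the 3 untested ones lay between 1.14 and 23.2.

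Zbtb16, the gene of PLZF, has 3 probe sets, all tested and all dim. The brightest gave 32.7, 34.7 and 27.1 against 51.9, 51.2 and 62.5. Every array labelled double knockout was above every wild type array, at levels not far above the brightest control. The log2 change was 0.57 (SE 0.24, 95% interval 0.047 to 1.09) with an adjusted p of 0.221 in limma. The second gave 30.0, 7.0 and 15.5 against 28.0, 30.1 and 35.2, a change of 0.53 (SE 0.29), and the third a change of 0.11 (SE 0.29), both with overlapping groups.

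Il1r1, the signalling receptor of interleukin 1, has 2 probe sets, of which 1 was tested. It gave 13.0, 46.3 and 10.3 in wild type against 85.2, 30.5 and 19.0 in the arrays labelled double knockout, with 1 high array in each group and overlap between the groups. The change was 0.58 (SE 0.44, 95% interval -0.38 to 1.54, adjusted p = 0.536 in limma). The untested probe set lay between 0.46 and 13.6. Over all 24 probe sets of the 7 genes, 8 were above the brightest control on all 6 arrays and 7 on none, so the dim ones carry little information on direction.

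**Figure D3:**
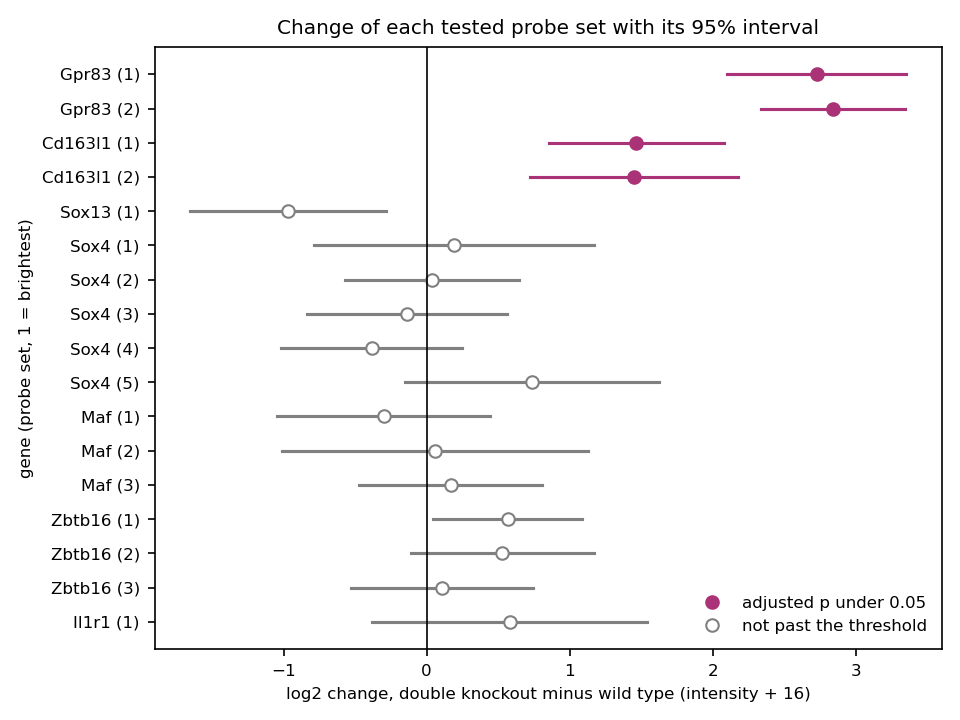
Log2 change (double knockout minus wild type, intensity + 16) of the 17 tested probe sets, numbered from the brightest within each gene, with 95% intervals from limma. Filled points passed an adjusted p of 0.05. The intervals of Gpr83 (2.10 to 3.35 and 2.34 to 3.35) lie to the right of most others, Sox13 is the one interval wholly below 0, and those of Sox4, Maf and Il1r1 span 0.

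The profiles most like those of the changed receptors were sought among 13180 other tested genes by the root mean square difference between centred log2 values over the 6 arrays. For Gpr83 the nearest was Il10, which encodes an anti-inflammatory cytokine, at a difference of 0.138. Its mean intensity went from 19.0 in wild type to 204, and its log2 change was 2.74 (SE 0.32). The next were 1500002F19Rik at 0.186, from 14.4 to 139, and Rpl3l, a ribosomal protein gene of muscle, at 0.232, from 9.94 to 181. All 3 genes share with Gpr83 a low wild type mean. For Cd163l1 the nearest were Cxcr3, a chemokine receptor of effector T cells, at 0.081, Bace1, a membrane protease, at 0.090, and Rhoq, a small GTPase, at 0.094. Their mean intensities went from 139 to 383, from 162 to 526 and from 77.2 to 229. A rank of this kind over 6 arrays picks genes with the same group difference and is a description.

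Other genes of the same programmes were read from 5 lists, each gene by its probe set of highest mean, in a fit over 13187 genes. Of these genes, 4.14% were called higher and 2.84% lower, with a median change of -0.013, and at an unadjusted p under 0.05 the shares were 11.1% higher and 9.79% lower, together 2755 genes. These shares are the background for the counts that follow. The lists were chosen with earlier results of these data known. A count above the background is therefore a description and no support for a programme. Of the 75 genes of the lists that were tested, 12 passed, 11 higher and 1 lower.

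Of the gamma-delta receptor chains, Trgv1 and Trgv4, 2 variable segments of the gamma locus, could be named and tested. Trgv1 had 3202, 4218 and 2728 against 1877, 1687 and 2440, with every array labelled double knockout below every wild type array. Its change was -0.76 (SE 0.25, adjusted p = 0.0951 in limma over genes). Trgv4 had 6980, 8529 and 11513 against 6004, 6371 and 6596, also without overlap, and a change of -0.50 (SE 0.20, adjusted p = 0.191 in limma over genes). Neither passed, at intensities far above the controls. Without wild type replicate 3 Trgv1 did pass, with an adjusted p of 0.0217 in limma. Both segments thus only leaned lower on the arrays on which Gpr83 and Cd163l1 were higher. Groups without overlap were also found for 23.9% of all tested probe sets. Another bright Trgv4 probe set changed by -0.54 (SE 0.20) without passing. A dim one changed by -0.10 (SE 0.35) with overlapping groups. Of 29 listed receptor chains only these 2 could be read, and the share of gamma-delta T cells in the samples was not tested.

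Of 20 tested genes of the gamma-delta lineage and interleukin 17 programme, 3 rose and 0 fell, with a median change of -0.007. At an unadjusted p under 0.05 the count was 6 higher and 1 lower. Beside 5830411N06Rik, Il7r, the interleukin 7 receptor chain that precursors and interleukin 17 producers use, rose by 1.499 (SE 0.21, adjusted p = 0.00225 in limma over genes), from 1004 ± 139.5 to 2887 ± 119 (SD, n = 3 each). Ccr10, a chemokine receptor, rose by 1.05 (SE 0.24, adjusted p = 0.0265 in limma over genes) but lost its call without wild type replicate 1 or any single array labelled double knockout, with adjusted p up to 0.102. The other genes of the list did not pass, and the order of their description was chosen after their values were seen. Blk, a Src-family kinase, changed by -0.33, Etv5 by 0.02, Ccr6 by -0.36, Id3 by -0.27 and Gata3 by -0.02. Relb at 0.92, Cd44 at 0.71, Id2 at 0.68 and Cd27 at 0.67 leaned higher. Hes1, Il17re, Ccr2, Tcf12, Ltbr and Batf had changes between -0.32 and -0.0041. Rora, a nuclear receptor of interleukin 17 producers, changed by 0.43 on its brightest probe set without passing. A dimmer one, with 4.07, 14.6 and 3.01 against 56.5, 30.8 and 35.3, changed by 1.28 (SE 0.32, adjusted p = 0.0404 in limma over probe sets), so the probe sets of Rora disagree. Lef1, an HMG-box factor of early thymocytes, changed by -0.83 with an adjusted p of 0.0561 in limma over genes.

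The innate-like list had the most changed genes. Of 23 tested genes of invariant NKT and innate-like T cells, 5 rose and 1 fell, with a median change of 0.90, and at an unadjusted p under 0.05 there were 14 higher and 1 lower. Nkg7, a cytotoxic granule protein, rose by 2.96 (SE 0.31), from 219 ± 58.4 to 1865 ± 593 (SD, n = 3 each). Klrd1, which encodes the NK receptor chain CD94, rose by 1.82 (SE 0.32), and Il2rb, the receptor chain shared by interleukin 2 and interleukin 15, by 2.02 (SE 0.37) from a wild type mean of 15.9, near background. Cxcr3 rose by 1.40 (SE 0.29) and Tbx21, the gene of T-bet, by 0.84 (SE 0.22). The calls of Cxcr3 and Tbx21 were weak. Cxcr3 lost its call without wild type replicate 1 or double knockout replicate 1 or 3, with adjusted p up to 0.0904, and Tbx21 without each array except wild type replicate 3, up to 0.223. Tbx21 had an adjusted p of 0.0447 in limma over genes, but 0.0558 over probe sets. Its call was also lost at an offset of 1, without the filter on dim values and without limma's intensity trend. With replicate number added to the fit, both genes lost their call. Hivep3, a large zinc finger factor, fell by 2.33 (SE 0.34, adjusted p = 0.00243 in limma over genes), from 1539, 1080 and 592 to 203, 150.02 and 214. Another bright probe set of Hivep3 changed by -0.69 (SE 0.25), which did not pass. Icos, a costimulatory receptor, did not pass on its brightest probe set, whereas a dimmer one rose by 1.34 (SE 0.26, adjusted p = 0.0119 in limma over probe sets).

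The count for the innate-like list moved with single arrays. Genes higher were 3 without wild type replicate 1, double knockout replicate 1 or double knockout replicate 3, and 9 without wild type replicate 3. Markers of natural killer and innate lymphoid cells (7 genes) had sums of 10926 to 15980 in wild type against 10609 to 13168, 0 of the 4 tested passed in limma (0 also at an unadjusted p under 0.05), and Ncr1 and Klra1 were never above the brightest control. Gzma alone made up 98.2% to 99.2% of this sum. Without it the sums were 127 to 198 in wild type against 111 to 163. The other tested genes of this marker list, Klre1, Prf1 and Eomes, were dim, with group means of 27.4 to 59.8. Klrd1, the NK receptor chain that rose, was counted in the innate-like list and not in this one. The part of natural killer and innate lymphoid cells in the values of the innate-like list was not tested.

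Of 17 tested genes of interleukin 23 and interleukin 1 signalling, 2 rose and 0 fell, with a median of 0.26, and at an unadjusted p under 0.05 there were 4 higher and 0 lower. Stat4, a signal transducer of the interleukin 12 and interleukin 23 receptors, had 104, 163 and 132 against 401, 381 and 431, tight groups with no overlap. It rose by 1.497 (SE 0.25, adjusted p = 0.00547 in limma over genes). Jak2, the kinase of the same receptors, rose by 1.06 (SE 0.25, adjusted p = 0.029 in limma over genes) and lost its call without wild type replicate 2 or double knockout replicate 1 or 3, with adjusted p up to 0.16. A dimmer Jak2 probe set rose by 1.71 (SE 0.26, adjusted p = 0.00322 in limma over probe sets). The list's higher count was then 1 in each case, and 3 without wild type replicate 3. The partner chains of the 2 cytokine receptors, read after their values were seen, were Il12rb1 at 0.10 (SE 0.31) and Il1rap at -0.05 (SE 0.30), and neither passed.

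Among 14 tested relatives of Sox13, Sox4, Maf and Zbtb16, 1 rose and 0 fell, with a median of -0.044, and at an unadjusted p under 0.05 there were 2 higher and 0 lower. Maff, a small Maf factor without a transactivation domain, had 29.5, 13.2 and 30.5 in wild type against 143, 165 and 72.3 under the double knockout label. All 3 wild type values were near background, and the change was 1.77 (SE 0.31, adjusted p = 0.00745 in limma over genes).

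**Figure D4:**
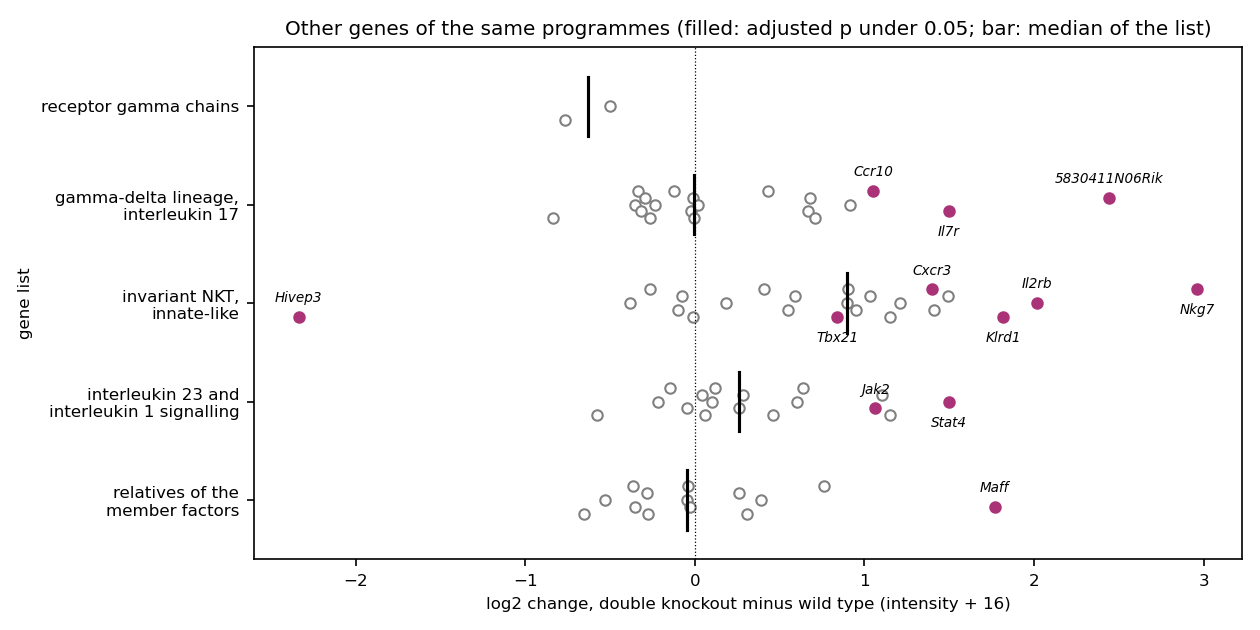
Log2 change (double knockout minus wild type, intensity + 16) of each tested gene in 5 lists of related genes, 1 point a gene, with a bar at the median of each list. Filled and named genes had an adjusted p under 0.05 over 13187 genes. The innate-like list has its median at 0.90 and Hivep3 far to the left, whereas the gamma-delta lineage list has its median at -0.007 with 3 genes to the right.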

How the data were processed

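The deposited table gives 1 linear intensity for each of 45101 probe sets on each array. With the top and bottom 2% of values left out, each array averages 150, so the authors' intensities were scaled to a common trimmed mean. The sources used here do not name the scanner software or the summary of probes, and no detection calls were used. Groups came from the sample titles, and no scan date or batch was given in the labels or the table.

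After 64 controls were left out, symbols came from the platform annotation (34945 probe sets with 1 symbol, 932 with several, 9160 with none here), and 34741 were updated through a RefSeq table of GRCm38.p6. An offset of 16 was added, log2 taken and each array centred on its median, since medians differed by 0.126. The test took in probe sets whose mean reached the 40th percentile, 4.87 or an intensity of 13.2. The change, double knockout minus wild type, was fitted by lmFit and eBayes (intensity trend) of limma 3.58.1 under R 4.3.3, Benjamini-Hochberg adjusted over 27022 probe sets at 0.05. SE is the moderated standard error. Untested probe sets were read from the table only. Related genes were tested in a second fit of 1 probe set for each of 13187 genes.

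The members and the gene lists were chosen with earlier results of these data known. Named were all members, Egr1 and Egr3, up to 4 changed genes of smallest p in each related list or else the 1 of smallest p, and the 3 genes most like each changed member. Other lists (early progenitor, macrophage and dendritic cell, B cell and thymic stroma markers) are read in the closing section. Alternatives were other scalings, offsets and filters, no trend, array weights, a replicate block, leaving out each array, and other rules for a gene's probe set.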

Additional observations from a re-analysis of the deposited data

How the results depend on the processing

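The 2 Gpr83 probe sets passed under every alternative run, with changes from 1.94 and 2.03 at an offset of 64 to 3.21 and 3.33 at an offset of 1. Changed member probe sets numbered 4 and went to 2 with 1 probe set per gene, by construction, to 2 with the replicate block, and to 2 to 4 with each array left out, the lowest without double knockout replicate 1. Both Cd163l1 calls were lost under the block (adjusted p = 0.0541 and 0.0686 in limma). Replicate numbers did not pair the samples (correlations of same-numbered deviations -0.0467, -0.133 and -0.291), so the block is a check only. All changed probe sets numbered 1358, went to 3417 with array weights and to 573 with the block, and ranged from 376 without double knockout replicate 1 to 2744 without wild type replicate 3. Changed genes of the 5 related lists numbered 12, went to 29 with array weights and to 8 with the block, and ranged from 8 to 20, the highest without wild type replicate 3. Fewer arrays leave less power. The cause of the other shifts was not tested. With array weights Trgv1 (adjusted p = 0.00278 in limma) and Trgv4 (0.0312) passed.

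Of 600 values of single probe sets or genes under an alternative, 546 kept direction and side of the threshold, 35 lost a call, 3 gained one and 16 turned sign, all 16 of them without a call. Those that turned, with probe sets numbered by brightness, were Maf 2 (-0.018 at an offset of 64, -0.26 with array weights, -0.66 to 0.44 with an array left out), Maf 3 (-0.083 to 0.395), Sox4 1 (-0.23 to 0.65), Sox4 2 (-0.14 with array weights, -0.19 to 0.19), Sox4 3 (0.11 with array weights, -0.43 to 0.21), Zbtb16 3 (-0.028 with array weights, -0.033 to 0.25) and Foxp3 (-0.19 to 0.036). Under a filter at the 60th percentile the dim probe sets of Zbtb16, Sox4, Maf and Il1r1 had no value.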

Other observations

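Marker lists of other cells that the sort could hold gave the following sums of intensity. Early progenitor markers (9 genes) were at 494 to 561 on the wild type arrays and at 526 to 659 on the arrays labelled double knockout, and 0 of 9 tested genes passed in limma, with 2, both higher, at an unadjusted p under 0.05, beside 11.1% of all genes. Macrophage and dendritic cell markers (11 genes) were at 2927 to 8107 and at 4502 to 4977, with 1 of 11 tested genes higher. B cell markers (7 genes) were at 1007 to 1676 and at 2109 to 2354, with 1 of 6 tested genes higher, Cd79b, which rose by 1.10. The changes of the other 5 were negative and did not pass, and without Cd79b the sums were 299.9 to 717 and 327 to 432. Thymic stroma markers (9 genes) were at 1078 to 3254 and at 3562 to 5679, with 1 of 6 tested genes higher, Pdgfrb, which rose by 1.47. At an unadjusted p under 0.05 there were 2 higher and 0 lower, beside 11.1% and 9.79% of all genes. The second was Epcam, which changed by 1.48 (SE 0.61) with overlapping groups. Pdgfrb made up 39.4% to 69.7% of this sum, and without it the sums overlapped, at 394 to 1973 and 1081 to 3081. Col1a1 and Pecam1 were never above the brightest bacterial control. The part of the cells of these lists in the changes of Gpr83 and Cd163l1 was not tested.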
